A study of Gallus gallus with 10 samples.

Results

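Gene expression in duodenal crypts was compared between laying hens fed the pair of lactobacilli labelled L. ag. + L. av. and hens fed the basal diet alone. The comparison holds 5 of the 10 libraries of the series, 2 with L. ag. + L. av. and 3 with the basal diet, and the libraries were chosen by their labels. All hens were Hy-Line brown layers at peak egg production, kept on a commercial farm. L. ag. + L. av. was mixed into the basal diet for 30 days, and the basal diet hens received that diet with no lactobacillus. Other groups of the series received L. sa. + L. ag. or L. sa. + L. av., with 2 libraries each. One library was left out of every group, because its title names L. ag. + L. av. while its short name is that of an L. sa. + L. av. library. The labels do not spell out the abbreviations. The title of the series names 2 species, Lactobacillus salivarius and L. agilis, besides Paneth cells and stem cells of the intestine, and the stated aim was to learn how Lactobacillus regulates gene expression in the crypts. Whether libraries of 1 diet stand for different hens is not said in the labels. A p-value therefore sets a difference only against the spread among these libraries, and that spread may be technical.

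Crypts are the pits between the villi of the small intestine. Stem cells near the crypt base divide and renew the epithelium, while Paneth cells, known best from mammals, secrete antimicrobial peptides and supply signals to the neighbouring stem cells. Lactobacilli are lactic acid bacteria of the crop and intestine of chickens and are fed as probiotics. RNA was taken from whole isolated crypts, so fewer cells of a type and less RNA per cell cannot be told apart in these values.

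The table gives FPKM values, in which the fragments of a feature are divided by its length and by a library total. It holds 19561 features, of which 17108 have Ensembl chicken identifiers and 2453 have the authors' own numbered identifiers, and it pairs none of them with a gene symbol. With 0 identifiers matched to a symbol, markers of crypt cell types, Paneth and stem cells among them, could not be looked up, and the crypt label was not checked against them. A feature was tested where it had at least 1 FPKM in at least 2 of the 5 libraries, which left 11205 features, 9824 with Ensembl identifiers and 1381 with the authors' own. Of these, 8553 reached 1 FPKM in all 5 libraries and 734 in exactly 2. The second-highest value was 1.00 FPKM for the feature just inside this limit and 0.999 FPKM for the feature just outside it.

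The libraries of the 2 diets differed in depth. Reads recovered from the FPKM steps came to 17.55 and 15.99 M in the L. ag. + L. av. libraries, against 23.73, 21.69 and 21.88 M in the basal diet libraries. Mean depth was 16.8 ± 1.11 M reads with L. ag. + L. av. (SD, n = 2) and 22.4 ± 1.13 M with the basal diet (SD, n = 3), with no overlap. A 2-sided exact permutation test, taken as 2 times the 1-sided p, gave p = 0.2, which is the lowest value it can take with the 10 splits of 2 and 3 libraries. Diet and depth cannot be told apart in these libraries. The total by which the authors divided was 1.10 and 0.572 times the recovered reads with L. ag. + L. av., against 1.28, 1.24 and 0.755 times with the basal diet. The 10 features with the most reads held 29.9% and 33.0% of the reads with L. ag. + L. av., against 18.5%, 31.4% and 56.5% with the basal diet. Exact (Clopper-Pearson) 95% intervals of these shares, which cover counting error only, reach at most 0.0231 percentage points to either side.

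**Figure D1:**
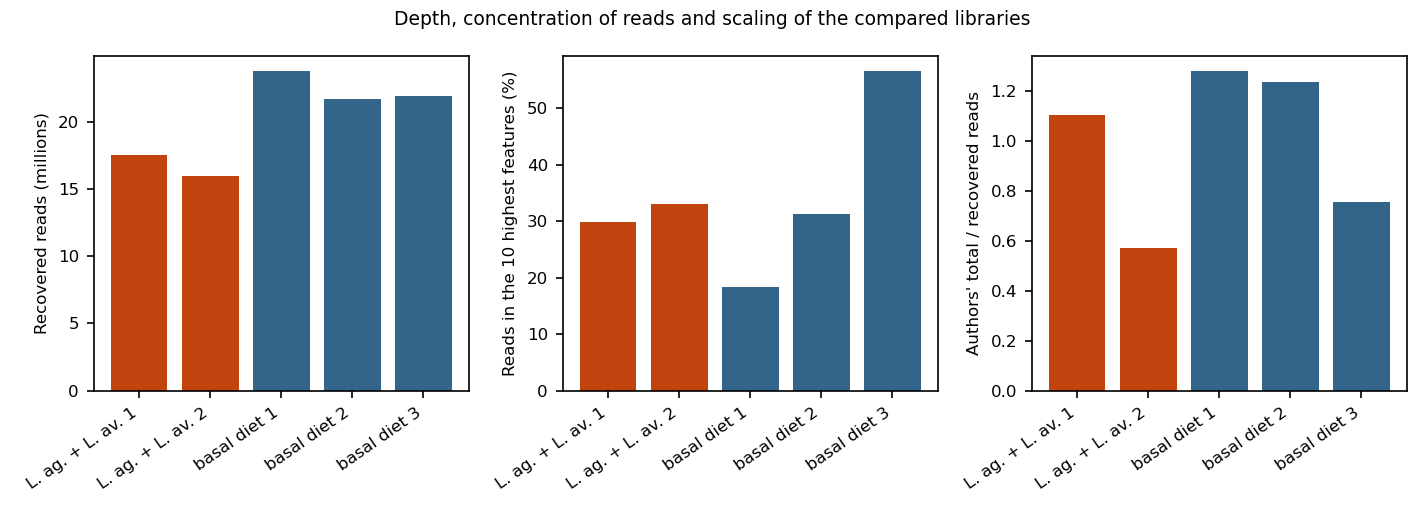
Bars give, for each of the 5 compared libraries, the recovered reads in M (left), the percent of reads in its 10 most abundant features (middle) and the authors' total divided by the recovered reads (right). Both L. ag. + L. av. libraries lie at 15.99 and 17.55 M reads and the 3 basal diet libraries at 21.69 to 23.73 M, while the other 2 measures overlap between the diets.

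No feature differed between L. ag. + L. av. and the basal diet past the threshold, a 2-sided Benjamini-Hochberg adjusted p under 0.05 in limma. The count was 0 of 11205 tested features (0%), and the smallest adjusted p in limma was 0.0627. At an unadjusted p under 0.05, limma gave 2681 features (23.9%), of which 1671 (14.9%) were higher and 1010 (9.01%) were lower with L. ag. + L. av. This count was 591 without L. ag. + L. av. replicate 2 and 3825 without replicate 1, and it was 1649, 1671 and 2610 without basal diet replicates 1, 2 and 3. The median log2 difference over all tested features was 0.04, and the median standard error of a difference was 0.41. Weighting recovered reads with voom, an alternative chosen after seeing the data, called 4 features. Dividing by all recovered reads of a library, also chosen after seeing the data, called 9.

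Counted without a test, 2817 features (25.1%) were higher in both L. ag. + L. av. libraries than in all 3 basal diet libraries, and 2454 (21.9%) were lower in both. For interchangeable libraries, each direction would hold in 1 of the 10 splits of 2 and 3, so part of each share needs no difference between the diets. Requiring in addition a 2-fold difference of the mean FPKM, with means under 1 set to 1, left 2927 features (26.1%), 1905 higher (17.0%) and 1022 lower (9.12%). The higher features thus made up 65.1% of this list, and 204 of them had a basal diet mean under 1 FPKM. After quantile normalization the split became 1378 higher and 1263 lower, or 52.2% higher. The higher features had a median length of 1173 bp and the lower features one of 2649 bp, beside 1945 bp over all tested features. Their median level in the basal diet libraries was 8.42 FPKM for the higher and 7.54 FPKM for the lower features, beside 6.63 FPKM over all.

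**Figure D2:**
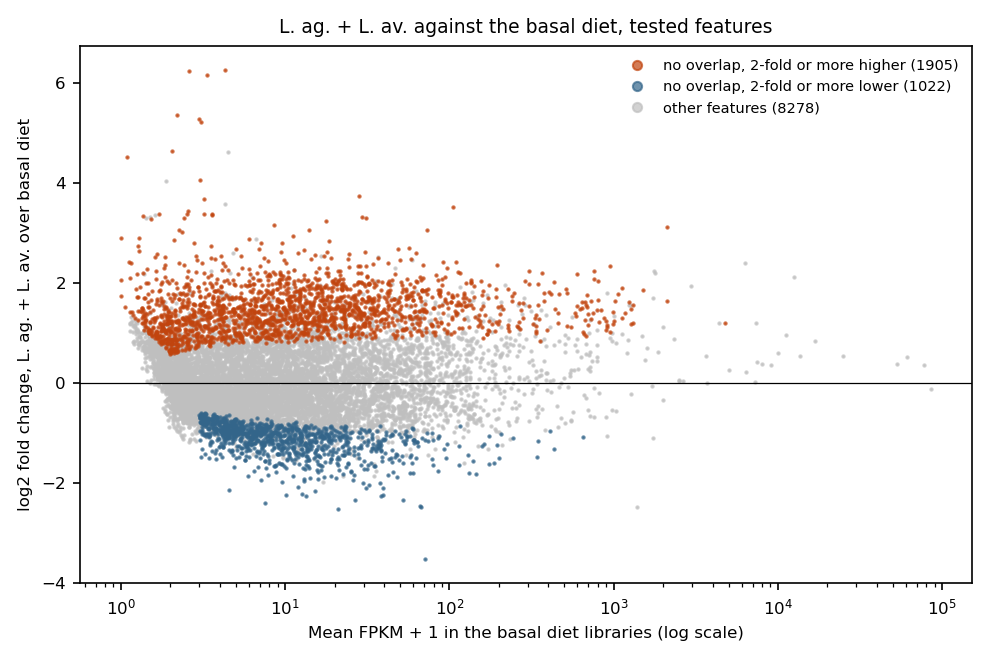
Each point is 1 of the 11205 tested features, placed by its mean FPKM + 1 in the basal diet libraries (log scale) and its log2 fold change, L. ag. + L. av. over basal diet, on the log2(FPKM + 1) scale. Of the 2927 coloured features, whose libraries do not overlap and whose means differ at least 2-fold, 1905 lie above 0 and 1022 below, a split that quantile normalization moves to 1378 and 1263.

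Features were named by lowest p among those with no overlap between the diets, a 2-fold difference of the means and at least 5 FPKM in either diet, 2 in each direction. Of the features that met these conditions, 1602 were higher and 680 lower. The files give no name or function for any of the features named. ENSGALG00000028016, 4267 bp long, had 13.9 and 19.7 FPKM with L. ag. + L. av., against 0.996, 0.891 and 0.241 FPKM with the basal diet. It was thus near or below 1 FPKM in every basal diet library and well above that in both others. These values came from 1147 and 768 reads with L. ag. + L. av. and from 129, 102 and 17 reads with the basal diet. The means were 16.8 ± 4.09 FPKM (SD, n = 2) and 0.710 ± 0.409 FPKM (SD, n = 3), a 23.6-fold difference. With all 3 basal diet values under 1 FPKM, it entered the test only through the L. ag. + L. av. libraries, where it is high, so its test is a description of these values. On the log2(FPKM + 1) scale, which understates the change of low features, the difference was 3.39 ± 0.42 (SE), and its adjusted p in limma of 0.0627 missed the threshold. It passed in 3 of the 16 alternatives, namely without L. ag. + L. av. replicate 1, under division by all recovered reads and with voom weights. Over the 16, the adjusted p in limma ranged from 0.0144 to 0.332, and with no filter on low values it was 0.147.

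ENSGALG00000025557, a feature of 287 bp, was at 331 and 411 FPKM with L. ag. + L. av., against 26.6, 30.9 and 23.4 FPKM with the basal diet. The values within each diet were close together and the diets were far apart. Reads were 1840 and 1080 with L. ag. + L. av. and 232, 238 and 111 with the basal diet. The means of 371 ± 56.7 FPKM (SD, n = 2) and 27.0 ± 3.77 FPKM (SD, n = 3) differed 13.7-fold. The log2 difference was 3.73 ± 0.47 (SE) with an adjusted p of 0.0627 in limma, and it passed in the same 3 alternatives, over the same range of adjusted p.

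Of the 2 lower features, the one with an identifier of the authors' own, 586 bp long, had 1.41 and 0.932 FPKM with L. ag. + L. av., against 6.24, 9.04 and 5.17 FPKM with the basal diet. The L. ag. + L. av. values rest on only 16 and 5 reads, against 111, 142 and 50 reads with the basal diet. The log2 difference was -1.83 ± 0.31 (SE), with an adjusted p of 0.159 in limma. It passed in 1 of 15 alternatives, without L. ag. + L. av. replicate 1, and the adjusted p in limma ranged from 0.0228 to 0.639. ENSGALG00000009227 (744 bp) had 1.11 and 1.91 FPKM from 16 and 13 reads with L. ag. + L. av., against 10.6, 6.82 and 5.78 FPKM from 239, 136 and 71 reads with the basal diet. Its log2 difference was -1.78 ± 0.35 (SE), with an adjusted p of 0.159 in limma, and it passed in 0 of 16 alternatives (0.0529 to 0.455). Both features lay below every basal diet library in both L. ag. + L. av. libraries.

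None of these 4 features differed between L. ag. + L. av. and the mean of the other pairs past the threshold, with an adjusted p of 1.00 in limma for each. ENSGALG00000028016 had 15.1 and 34.2 FPKM with L. sa. + L. ag. and 23.7 and 17.1 FPKM with L. sa. + L. av. ENSGALG00000025557 had 621 and 323 FPKM with L. sa. + L. ag. and 559 and 278 FPKM with L. sa. + L. av. For both, the L. ag. + L. av. values lay within or beside these ranges, and the log2 differences of L. ag. + L. av. from the mean of the other pairs were -0.36 ± 0.40 and -0.19 ± 0.44 (SE). For the feature of 586 bp, L. sa. + L. ag. had 1.14 and 1.39 FPKM and L. sa. + L. av. 2.53 and 3.01 FPKM, so the L. ag. + L. av. values resembled those of L. sa. + L. ag. ENSGALG00000009227 had 2.43 and 3.92 FPKM with L. sa. + L. ag. and 3.18 and 3.01 FPKM with L. sa. + L. av., between the L. ag. + L. av. and the basal diet values. Its log2 difference from the mean of the other pairs, -0.73 ± 0.33 (SE), was the largest of the 4 in size. All comparisons of a pair with the basal diet share the same 3 basal diet libraries.

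**Figure D3:**
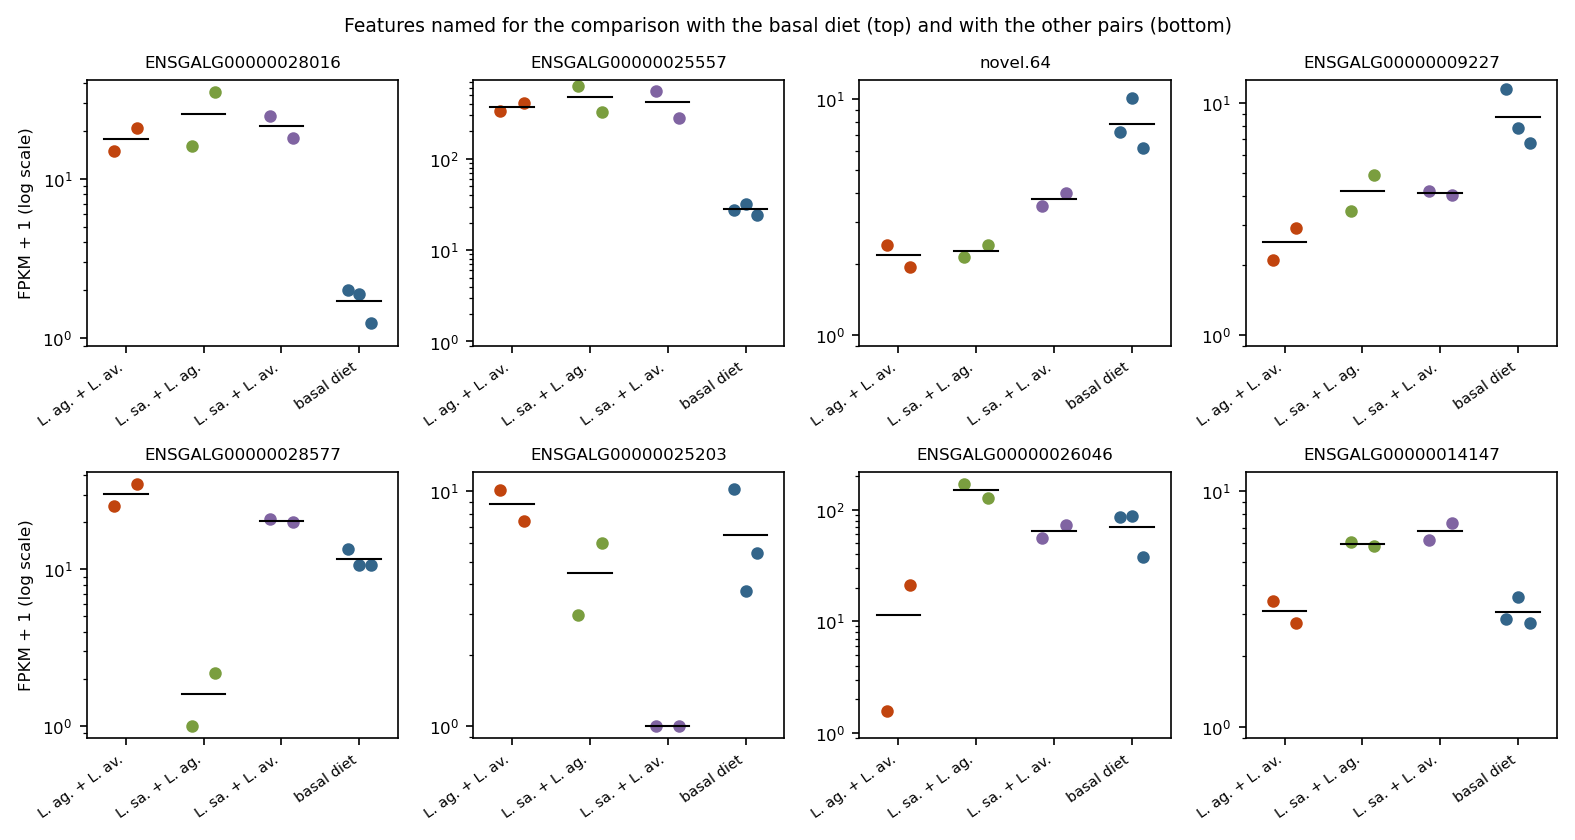
Each panel shows 1 named feature, with a point for each library, a bar at the mean of the group, the 4 diets along the horizontal axis and FPKM + 1 on a log scale. In the top row ENSGALG00000028016 and ENSGALG00000025557 are higher, and the feature of 586 bp and ENSGALG00000009227 lower, in both L. ag. + L. av. libraries than in the 3 basal diet libraries, and in the bottom row ENSGALG00000028577 is lowest with L. sa. + L. ag., while ENSGALG00000026046 ranges from 0.575 to 20.2 FPKM with L. ag. + L. av.

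The 2 libraries fed L. ag. + L. av. differed from each other in more features than any 2 basal diet libraries did. Between replicates 2 and 1 of L. ag. + L. av., 3028 of the tested features (27.0%) were at least 2-fold apart on the log2(FPKM + 1) scale, 2178 of them higher in replicate 2. The same count was 1596 (14.2%), 2617 (23.4%) and 459 (4.10%) for the 3 pairs of basal diet libraries. Replicate 2 also had fewer reads, 5303 features at 0 against 3865 in replicate 1, and the lowest total relative to its reads of the 5 libraries. The part of depth and scaling in this difference was not tested.

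Replicate 2 stood much farther from the basal diet than replicate 1. In replicate 1, 277 features lay at least 1 log2 unit above the range of the 3 basal diet libraries and 44 as far below it. In replicate 2, 2186 features lay as far above that range and 707 as far below. For comparison, each basal diet library was set against the range of the other 2, which is narrower. Basal diet replicate 1 then had 722 features above and 625 below, replicate 2 had 38 and 34, and replicate 3 had 197 and 105.

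Correlations between libraries over the 11205 features, given as a description, were also lower between the basal diet and L. ag. + L. av. replicate 2 than between the basal diet and replicate 1. Replicate 1 of L. ag. + L. av. had a Pearson correlation of 0.916 (Spearman 0.889) with replicate 2 of its own diet. With basal diet replicates 1, 2 and 3 its Pearson values were 0.854, 0.932 and 0.946. Replicate 2 of L. ag. + L. av. had values of 0.782, 0.862 and 0.874 with the same libraries, and its highest value, 0.964, was with replicate 1 of L. sa. + L. av. The basal diet libraries correlated at 0.889 to 0.972 among themselves. All libraries share the most abundant features and the gene models, which raises every one of these values.

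The number of called features turned on 1 library. Without L. ag. + L. av. replicate 1, limma called 1329 features at an adjusted p under 0.05, 1112 higher and 217 lower. Without replicate 2 it called 6, of which 5 were higher, and 0 features were called in both cases. Each of these fits leaves 1 library for the diet, which is then assumed to vary like the libraries of the other diets. The features called without L. ag. + L. av. replicate 1 had a median length of 1293 bp. They were selected on values that the overlap over all 5 libraries uses again, so that overlap is no independent check of them. The count of features with no overlap and a 2-fold difference was 5315 without replicate 1 and 1678 without replicate 2, against 2927 with both.

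ENSGALG00000007114, 996 bp long, is shown because it was the most abundant feature of L. ag. + L. av. replicate 2, a choice made after its values were seen. It had 14233 and 130305 FPKM with L. ag. + L. av., against 24647, 8272 and 4798 FPKM with the basal diet. Replicate 2 was therefore above all basal diet libraries while replicate 1 lay within their range. The libraries of the other pairs also lay above all basal diet libraries. They had 31316 and 37324.5 FPKM with L. sa. + L. ag. and 36241 and 54902 FPKM with L. sa. + L. av. The 1187625 reads of L. ag. + L. av. replicate 2 were 7.43% of that library. The log2 difference of L. ag. + L. av. from the basal diet was 2.12 ± 1.12 (SE), with an adjusted p of 0.257 in limma.

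The difference between the diets went with the length of the feature, with short features higher and long features lower with L. ag. + L. av. by median, given with no test. Length was recovered from the FPKM steps, and each median is of the log2 difference in FPKM, L. ag. + L. av. minus basal diet. The 741 features no longer than 500 bp had a median of 0.80, and the 1665 features of 500 to 1000 bp one of 0.63. It was 0.18 for 3356 features of 1000 to 2000 bp, -0.16 for 3625 features of 2000 to 4000 bp and -0.33 for 1818 features above 4000 bp. Of the shortest features, 34.8% were higher with no overlap and at least 2-fold, and 2.56% were lower. Of the longest, 4.90% were higher and 13.0% lower. Over all tested features 17.0% were higher and 9.12% lower. Features under 1 FPKM with the basal diet, which enter the test chiefly where L. ag. + L. av. is high, were kept in these shares. The medians kept their signs under median-ratio scaling, quantile normalization and division by all recovered reads, except that 1000 to 2000 bp moved to -0.13 under division by all recovered reads. Those scalings moved the median of all features by -0.01, -0.12 and -0.30.

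Both L. ag. + L. av. libraries followed this order, and replicate 2 did so more steeply. Against the basal diet mean, features no longer than 500 bp had medians of 0.58 in replicate 1 and 1.03 in replicate 2, and features above 4000 bp had -0.19 and -0.50. The basal diet libraries also differed from one another by length. Basal diet replicate 1, set against the other 2, had medians of -0.34 for the shortest and 0.21 for the longest features, and replicate 3 had 0.25 and -0.15. The medians of the shortest and the longest features were farther apart in both L. ag. + L. av. libraries than in any basal diet library. The part of depth and of the authors' scaling in this order was not tested. Short features stayed above long ones by median among features of similar level, though not class by class at the low end. For features at 1 to 5 FPKM with the basal diet, the median was 0.40 for the 279 shortest, 0.45 for the 414 of 500 to 1000 bp and -0.29 for the 950 longest, and in L. ag. + L. av. replicate 2 the 2 shorter classes had 0.27 and 0.65. For features at 5 to 20 FPKM with the basal diet, the 154 features no longer than 500 bp had a median of 0.93, against -0.44 for the 666 features above 4000 bp. At 20 to 100 FPKM it was 1.26 for 93 of the shortest and -0.52 for 130 of the longest features.

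**Figure D4:**
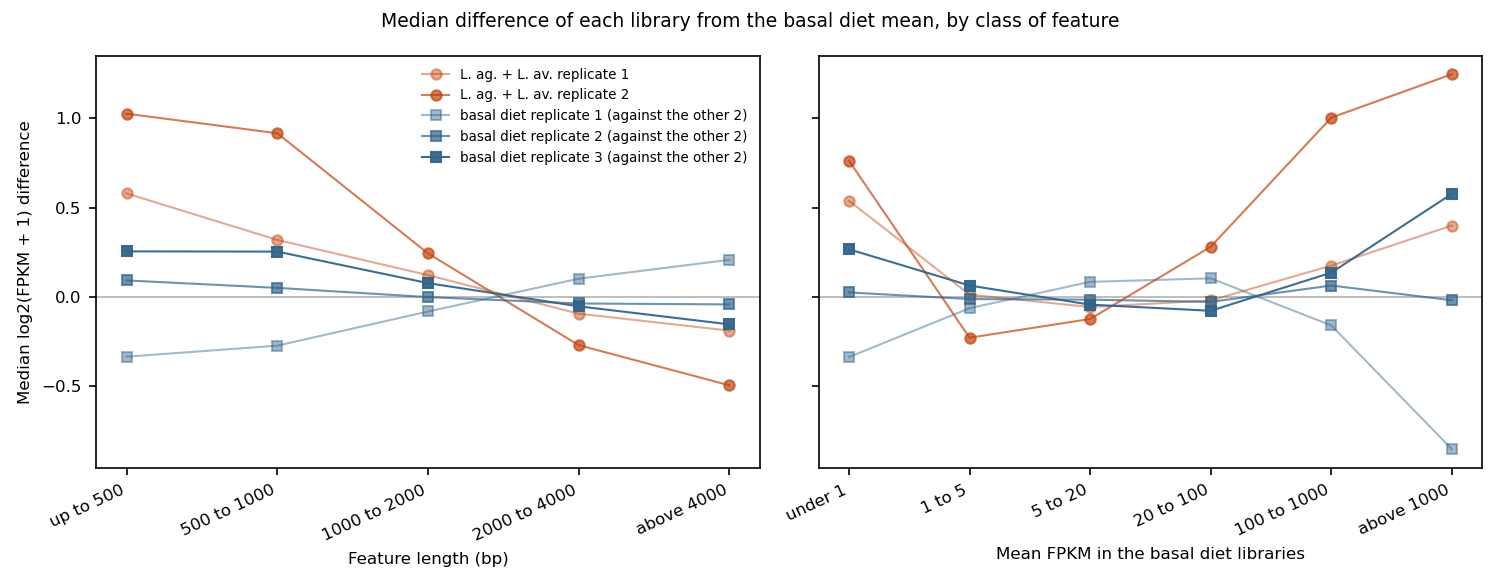
Lines give, for each library, the median log2(FPKM + 1) difference from the basal diet mean by feature length in bp (left) and by mean FPKM with the basal diet (right). Each basal diet library is set against the mean of the other 2. L. ag. + L. av. replicate 2 runs from 1.03 at up to 500 bp to -0.50 above 4000 bp, replicate 1 from 0.58 to -0.19 and basal diet replicate 1 the other way, from -0.34 to 0.21.

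Features with the authors' own identifiers had a median log2 difference of 0.60 between L. ag. + L. av. and the basal diet (1381 features), against -0.04 for Ensembl features (9824 features). Under division by all recovered reads these medians were 0.29 and -0.34, so their order stayed. Among the 1381 of the authors' own, 431 (31.2%) were higher with no overlap and at least 2-fold, and 39 (2.82%) were lower. Over all tested features these shares were 17.0% and 9.12%. Of the 9824 Ensembl features, 1474 were higher and 983 lower. The authors' own features were shorter, with a median length of 972 bp against 2086 bp. Within 1000 to 2000 bp the medians were 0.52 for the authors' own and 0.13 for the Ensembl features, and within the shortest class they were 0.83 and 0.75.

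By median, abundant features were higher with L. ag. + L. av. in the values as deposited, chiefly in replicate 2. The median log2 difference was -0.08 for 3822 features at 5 to 20 FPKM with the basal diet, 0.59 for 526 features at 100 to 1000 FPKM and 0.87 for 62 features above 1000 FPKM. Quantile normalization turned the last 2 medians to -0.25 and -0.07, so their direction depends on the scaling. Features at 100 to 1000 FPKM had medians of 0.18 and 1.00 in L. ag. + L. av. replicates 1 and 2. In the basal diet libraries, each set against the other 2, these medians were -0.16, 0.06 and 0.14. Features above 1000 FPKM had medians of 0.40 and 1.25 in the L. ag. + L. av. libraries, against -0.85, -0.02 and 0.58 in the basal diet libraries. The 727 features under 1 FPKM with the basal diet had a median of 0.66, but a feature at so low a basal level enters the test chiefly where the L. ag. + L. av. libraries are high, so that median is not read as a difference between the diets.

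Set against the mean of the other 2 pairs in the same fit, L. ag. + L. av. differed in 0 of 11205 features (0%), and the smallest adjusted p in limma was 0.530. At an unadjusted p under 0.05 there were 429 features (3.83%), 383 higher (3.42%) and 46 lower (0.411%), a share no larger than that threshold would give with no difference at all. Counted without a test, 746 features (6.66%) were higher in both L. ag. + L. av. libraries than in all 4 libraries of the other pairs, and 435 (3.88%) were lower. With 2 against 4 libraries, shares of this size can arise with no difference at all, so they are not read as a difference between the pairs. Overlap is likelier with 4 libraries than with 3, so these shares are not comparable with those against the basal diet. With at least a 2-fold difference there were 389 (3.47%), 337 higher (3.01%) and 52 lower (0.464%). The filter used only the L. ag. + L. av. and basal diet libraries. A feature that reached 1 FPKM only in the other pairs was therefore not tested, which favours higher features. With a mean of at least 5 FPKM in L. ag. + L. av. or in the other pairs as well, 204 were higher and 24 lower, under the same filter. The excess of higher over lower is not read as a difference between the pairs, and the part of the filter in it was not tested. For features with a mean of at least 5 FPKM the median log2 difference from the other pairs was -0.04, against 0.01 over all tested features. The median log2 difference from the other pairs was 0.17 for the shortest class and 0.04 for the longest, so the medians by length were closer together than against the basal diet. The libraries of the other pairs had 15.26 to 17.64 M reads, within or near the depth of the L. ag. + L. av. libraries.

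The 2 higher features named against the other pairs had low values in 1 pair each. ENSGALG00000028577 (460 bp) had 24.6 and 34.0 FPKM with L. ag. + L. av., 0 and 1.18 FPKM with L. sa. + L. ag., 19.9 and 19.0 FPKM with L. sa. + L. av., and 12.5, 9.73 and 9.74 FPKM with the basal diet. The L. sa. + L. ag. libraries, with 0 and 8 reads, were below every other library, and the L. ag. + L. av. libraries, with 219 and 143 reads, were above. Its log2 difference of L. ag. + L. av. from the mean of the other pairs was 2.44 ± 0.37 (SE) with an adjusted p of 0.530 in limma, and that from the basal diet was 1.37 ± 0.38 (SE) with an adjusted p of 0.159. ENSGALG00000025203 (68 bp) had 9.11 and 6.43 FPKM with L. ag. + L. av., 1.97 and 4.99 FPKM with L. sa. + L. ag. and 0 in both libraries of L. sa. + L. av. These values rest on 12 and 4 reads with L. ag. + L. av., and with the basal diet the feature had 9.21, 2.74 and 4.45 FPKM, which overlap those of L. ag. + L. av.

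Because ENSGALG00000028577 lay above the basal diet range with L. ag. + L. av. and below it with L. sa. + L. ag., these 2 pairs were also contrasted directly, a comparison added after the values were seen. It was the only feature called, 1 of 11205 (0.00892%), where an unadjusted p under 0.05 was reached by 456 features (4.07%), 410 higher (3.66%) and 46 lower (0.411%). The filter favours higher features in this contrast too, and its part in the split was not tested. The log2 difference of L. ag. + L. av. from L. sa. + L. ag. was 4.34 ± 0.42 (SE), with an adjusted p of 0.0168 in limma. It was also called in 7 of the 14 alternatives, over which the adjusted p in limma ranged from 0.00333 to 1.00. The feature was chosen for this difference, so the test is no independent support for it. Leaving out either L. ag. + L. av. library or L. sa. + L. ag. replicate 1 ended the call.

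The 2 lower features named against the other pairs differed in how far the L. ag. + L. av. libraries stood apart. ENSGALG00000026046 (1615 bp) had 0.575 and 20.2 FPKM with L. ag. + L. av., from 18 and 299 reads, against 170.4 and 126.5 FPKM with L. sa. + L. ag., 54.3 and 71.9 FPKM with L. sa. + L. av. and 85.0, 87.0 and 37.0 FPKM with the basal diet. Both L. ag. + L. av. values were below all others, and their ratio to each other was larger than between libraries of any other diet. The log2 difference of L. ag. + L. av. from the other pairs was -4.07 ± 0.85 (SE) with an adjusted p of 0.966 in limma, and that from the basal diet was -3.51 ± 0.89 (SE) with an adjusted p of 0.159. Against the other pairs it was called without L. ag. + L. av. replicate 2 and under division by all recovered reads, and the adjusted p in limma ranged from 0.00644 to 1.00 over 16 alternatives. The log2 difference was -2.19 without L. ag. + L. av. replicate 1 and -5.94 without replicate 2. ENSGALG00000014147 (1611 bp) had 2.44 and 1.76 FPKM with L. ag. + L. av., against 5.06 and 4.85 FPKM with L. sa. + L. ag., 5.19 and 6.31 FPKM with L. sa. + L. av. and 1.86, 2.57 and 1.77 FPKM with the basal diet. Its L. ag. + L. av. values overlapped those of the basal diet, and the log2 difference from the other pairs was -1.04 ± 0.28 (SE) with an adjusted p of 0.999 in limma.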

How the data were processed

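The authors deposited 1 table of FPKM values for 10 libraries. Per the labels' protocols, crypts were released from duodenum with EDTA, RNA was extracted with TRIzol and an RNeasy kit, and TruSeq kits served for the libraries. Tools named, per the submitters' processing notes, were HISAT2, featureCounts 1.5.0-p3 and CASAVA 1.8. The annotation, the genome build and the way the totals behind the deposited FPKM were set were not given in the sources used here. A gene table (25635 genes, assembly bGalGal1.mat.broiler.GRCg7b) lists 0 Ensembl identifiers, so 0 features matched and the 32 gene lists planned gave no result.

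Low FPKM values are whole multiples of a step, which gave lengths and reads for 17375 of 17375 features above 0. Each length was chosen as the smallest that put every value of the feature within 0.02 reads of a whole number. That 100% of values did so was therefore fixed by the method and is no check of it. Depth and totals come from these reads. The test used the FPKM values as deposited, as log2(FPKM + 1), in limma 3.58.1 under R 4.3.3, with lmFit, contrasts and trended eBayes. The fit held 9 labelled libraries of 4 groups, which share 1 estimate of the spread, over features that reached 1 FPKM in 2 or more of the 5 libraries compared. The threshold for a call was 0.05 on the Benjamini-Hochberg adjusted p, 2-sided. The fit was run on simulated data with known changes, the same spread in every group and no difference in depth. The libraries here differed in both, so that run is no support for the results. Features were named by highest and lowest log2 difference among called features, filled by lowest p among features with no overlap, a 2-fold difference and 5 FPKM in either group, at most 2 in each direction, since no symbols are paired. Median lengths and levels by class were added after seeing the data, as were division by all recovered reads, voom weights and the direct contrast with L. sa. + L. ag. Alternatives comprise a pseudocount of 0.1, other filters, scalings, priors and weights, a replicate block and leaving out each library. The libraries and lists were chosen with earlier results of these data known.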

Additional observations from a re-analysis of the deposited data

Results flagged for a closer look

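In the library whose title and short name give different pairs, which entered no comparison, ENSGALG00000028016 had 1.92 FPKM, above the highest basal diet value of 0.996 FPKM and below the lowest L. ag. + L. av. value of 13.9 FPKM. It was also below the L. sa. + L. av. values of 23.7 and 17.1 FPKM and the L. sa. + L. ag. values of 15.1 and 34.2 FPKM. In that library ENSGALG00000025557 had 390.7 FPKM, above the highest basal diet value of 30.9 FPKM and between the L. ag. + L. av. values of 331 and 411 FPKM. It also lay between the L. sa. + L. av. values of 559 and 278 FPKM.

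Only the features named against the basal diet or the other pairs were searched for opposite directions. Another 2 of these stood on opposite sides of the basal diet range in 2 pairs. ENSGALG00000028577 was above that range in both L. ag. + L. av. libraries and below it in both L. sa. + L. ag. libraries, with a log2 difference of 4.34 between the pairs and an adjusted p of 0.0168 in limma. This contrast was added because of these same values, so that p is no independent support. Over 14 alternatives the adjusted p in limma ranged from 0.00333 to 0.9997, and not all of them called the feature. ENSGALG00000026046 was below the range with L. ag. + L. av. and above it with L. sa. + L. ag., with a log2 difference of -4.68 and an adjusted p of 1 in limma. It was called in 2 of 14 alternatives, without L. ag. + L. av. replicate 2 and under division by all recovered reads, and over the 14 the adjusted p in limma ranged from 0.00345 to 1. The log2 difference was -2.80 without L. ag. + L. av. replicate 1 and -6.55 without replicate 2.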

How the results depend on the processing

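Against the basal diet, 12 of the 16 alternatives called 0 features. Division by all recovered reads called 9, voom weights 4, and leaving out 1 library gave 0 to 1329. The replicate block gave 0 calls, with 2771 features at an unadjusted p under 0.05 against 2681. Same-numbered libraries of the 2 diets deviated together with correlations of 0.07 and 0.07. The deviations of the 2 L. ag. + L. av. libraries mirror each other, so these values cannot tell whether libraries of the same number belong together. Against the mean of the other pairs, 13 of 16 alternatives called 0, the replicate block called 1 (another feature than those named), division by all recovered reads 1, and leaving out 1 library gave 0 to 1. Against L. sa. + L. ag., 1 was called, and this became 0 with a pseudocount of 0.1, 0 with voom weights, 2 with division by all recovered reads and 0 to 1 without 1 library. The replicate block called 1, and it was not ENSGALG00000028577. With no filter on low values 1 lower feature was called, while ENSGALG00000028577 had an adjusted p of 0.0744 in limma. The 2927 features with no overlap and a 2-fold difference became 5271 with no minimum fold (2817 higher and 2454 lower), 1875 under division by all recovered reads and 1678 to 5315 without 1 library. The causes of these shifts were not tested. No named feature changed direction in any alternative. The features were named for having no overlap between the groups, so this could hardly come out otherwise and is no support for them. Library weights reached 67.8 for basal diet replicate 2, so that fit leans on 1 library. Alternatives for gene lists were not run, since no list could be matched. The diets had 2 and 3 libraries of unequal depth, and as few as 4 reads lay behind a named L. ag. + L. av. value. Small differences were not detectable. The 13.7-fold difference of ENSGALG00000025557, with no overlap between the diets, also missed the threshold. A count of 0 calls therefore does not show that large differences were absent.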
